A study of Homo sapiens with 12 samples.

Results

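Chromatin that opened or closed with doxycycline (DOX) in both of 2 carcinoma lines was examined by ATAC-seq, in which the Tn5 transposase cuts accessible DNA and the number of fragments over a site measures how open it is. The prostate line was DU-145, a castration-resistant prostate cancer (CRPC), and the breast line was BT-549, a triple-negative breast cancer (TNBC), both of human origin. All cells of both lines carried a tetracycline-inducible short hairpin RNA against MUC1 (tet-MUC1shRNA) and were kept for 7 days in DOX or in its vehicle (DMSO at 0.1%). Each of the 4 groups had 3 replicates, which makes 12 libraries, each from 50000 cells. The libraries hold 1 hairpin and no line with a control hairpin, so silencing of MUC1 and an effect of DOX itself cannot be told apart here, and the DOX dose is not given in the sources used here. The accessible regions are those of each line's own bin table on GRCh38, in which regions are divided into 100-bp bins. Of 79177 DU-145 regions and 46298 BT-549 regions, 31661 DU-145 regions held at least 1 bin with the same chromosome and start in the BT-549 table. Each of these 31661 regions was represented by its shared bin with the highest mean scaled value and was tested for an effect of DOX common to the lines.

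MUC1-C is the transmembrane subunit of the MUC1 mucin, and in carcinoma cells it also enters the nucleus, where it has been studied together with the transcription factor JUN and the BAF remodeling complex. BAF (SWI/SNF) uses ATP to move nucleosomes, and AP-1 dimers of JUN and FOS proteins bind DNA at many enhancers, the distal elements that differ most between cell types. TEAD proteins, the DNA-binding partners of the Hippo pathway effectors YAP and TAZ, often bind the same enhancers as AP-1. The question was which sites change in the same direction when a prostate and a breast carcinoma line are given DOX.

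To show the DNA at sites that changed in both lines, 300 bases around 6 representative bins are printed below from GRCh38, plus strand, 5′ to 3′. They are, in order, the opening region with the largest change in its less-changed line (SYT14), 2 further opening regions with an AP-1 match (MYRFL and NID2), one of the 2 regions near JUN that opened in each line (JUN), the first closing region (CCR4) and a closing region with an AP-1 match (LMO7). Each is named by the nearest protein-coding transcription start site (TSS), which is a label and not an assigned target. Capitals mark every match to the AP-1 letters TGACTCA or to their reverse complement TGAGTCA.
SYT14 (opening, chr1:209895801-209896100): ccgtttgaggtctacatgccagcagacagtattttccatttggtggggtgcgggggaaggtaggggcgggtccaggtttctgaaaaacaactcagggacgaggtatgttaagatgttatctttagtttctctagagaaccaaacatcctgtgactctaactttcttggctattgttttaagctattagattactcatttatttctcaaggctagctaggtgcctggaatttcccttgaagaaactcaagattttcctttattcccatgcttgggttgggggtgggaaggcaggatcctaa
MYRFL (opening, chr12:69966601-69966900): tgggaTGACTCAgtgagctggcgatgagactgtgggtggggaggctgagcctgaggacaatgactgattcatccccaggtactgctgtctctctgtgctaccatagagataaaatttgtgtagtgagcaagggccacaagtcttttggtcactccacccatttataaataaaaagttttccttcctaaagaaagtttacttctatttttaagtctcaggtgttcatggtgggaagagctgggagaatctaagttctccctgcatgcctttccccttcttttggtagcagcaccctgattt
NID2 (opening, chr14:52080801-52081100): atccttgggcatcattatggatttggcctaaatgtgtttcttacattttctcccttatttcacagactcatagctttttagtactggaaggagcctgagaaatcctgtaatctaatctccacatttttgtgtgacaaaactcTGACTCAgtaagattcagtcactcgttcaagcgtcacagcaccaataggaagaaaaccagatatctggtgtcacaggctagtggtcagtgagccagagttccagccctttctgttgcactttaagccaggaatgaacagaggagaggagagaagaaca
JUN (upstream region, opening, chr1:58848901-58849200): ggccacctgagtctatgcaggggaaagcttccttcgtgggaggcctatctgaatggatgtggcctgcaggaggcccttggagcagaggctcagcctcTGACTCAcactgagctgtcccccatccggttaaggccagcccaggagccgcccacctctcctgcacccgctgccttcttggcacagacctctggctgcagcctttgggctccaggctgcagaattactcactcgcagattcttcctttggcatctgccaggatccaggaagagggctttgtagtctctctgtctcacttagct
CCR4 (closing, chr3:32914101-32914400): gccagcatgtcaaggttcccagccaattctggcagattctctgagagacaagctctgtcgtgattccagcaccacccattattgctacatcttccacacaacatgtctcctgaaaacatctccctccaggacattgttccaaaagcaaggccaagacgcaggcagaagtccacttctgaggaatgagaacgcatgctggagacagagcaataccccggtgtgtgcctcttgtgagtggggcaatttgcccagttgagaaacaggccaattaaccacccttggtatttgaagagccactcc
LMO7 (closing, chr13:75685301-75685600): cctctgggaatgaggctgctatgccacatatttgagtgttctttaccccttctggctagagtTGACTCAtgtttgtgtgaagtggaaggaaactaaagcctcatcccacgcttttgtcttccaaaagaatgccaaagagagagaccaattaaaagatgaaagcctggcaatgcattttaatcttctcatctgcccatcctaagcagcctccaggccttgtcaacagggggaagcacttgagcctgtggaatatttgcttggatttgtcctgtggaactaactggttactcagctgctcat
The MYRFL, NID2, JUN and LMO7 sequences held 1 AP-1 match each, and the SYT14 and CCR4 sequences held 0. NID2, CCR4 and LMO7 also held a match to the TEAD letters GGAATG or CATTCC.

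Coverage differed strongly between the groups. The bin values summed to between 12370094 and 25232000 over the DU-145 libraries. In BT-549 the sums were 9142900 to 13606129 for vehicle and only 2502510 to 3267024 for DOX. The median representative bin had 5.95 to 7.48 fragments in the BT-549 DOX libraries and 21.9 to 58.8 in the other 9, and 3.57% to 7.45% of the bins were under 1 in BT-549 DOX against at most 0.979% elsewhere. Values below are normalized coverage, the bin value divided by the library's effective size (TMM) and multiplied by the mean effective size over the 12 libraries, so that 1 unit stands for 0.223 to 0.281 fragments in BT-549 DOX libraries and for 0.777 to 1.77 in the others. This scaling sets most regions at no change, and a loss shared by all regions of a library would not be seen. In vehicle cells, 5 of 5 epithelial marker promoters (CDH1, EPCAM, KRT8, KRT18 and ESRP1) held an accessible bin in DU-145 and 1 of 5 did in BT-549, whereas the mesenchymal ones (VIM, ZEB1, ZEB2, FN1 and CDH2) did so at 4 of 5 in DU-145 and 5 of 5 in BT-549. Of 3 breast luminal marker promoters (ESR1, GATA3 and PGR), 1 was accessible in BT-549.

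DOX was followed by opening of 2584 regions and closing of 2145 regions in the model with cell line as a block (edgeR's quasi-likelihood test, Benjamini-Hochberg adjusted p under 0.05, same sign in each line). These are 8.16% and 6.77% of the 31661 regions tested, and a further 1077 of the 5806 regions past the threshold had opposite signs in the lines and were set aside. Tested within each line as well, 802 regions (2.53%) opened in both DU-145 and BT-549 and 541 (1.71%) closed in both. The median log2 fold change of the 802 was 1.24 in DU-145 and 1.28 in BT-549, and that of the 541 was -0.73 in DU-145 and -1.5 in BT-549. Each of the 541 had to pass within BT-549, where DOX bins held few fragments, so the closing medians depend on this choice. Simulated common changes of log2 -1 passed in each line in 2% of 50 regions. That share may be too low for the data, because 31457 simulated regions had no change, which makes the adjustment harsher. Most of the remaining common calls rested on DU-145, since 2936 of 3386 passed within DU-145 and not within BT-549. Removing each library's trend with GC content gave 2291 common opening and 3841 common closing regions, which lowered the opening share from 54.6% to 37.4%, and in each line from 59.7% to 45.4%.

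Changes in opposite directions outnumbered shared ones. DU-145 alone had 6609 opening (20.9%) and 6565 closing regions (20.7%), and BT-549 alone had 3024 opening (9.55%) and 2803 closing regions (8.85%). In 857 regions DU-145 opened and BT-549 closed, and in 845 DU-145 closed and BT-549 opened, 1702 opposite regions against 1371 that passed in both lines with the same sign before the common test was applied. The regions opening in each line made up 12.1% of the DU-145 and 26.5% of the BT-549 opening regions, and those closing in each line 8.24% and 19.3% of the closing ones. Over all tested regions, 9.55% opened in BT-549 and 20.9% in DU-145, while 8.85% closed in BT-549 and 20.7% in DU-145. The closing overlap was thus no higher than these shares over all tested regions. Across all tested regions the log2 fold changes of the lines had a Pearson r of 0.028, a description over regions that share libraries and are not independent replicates. With a change of at least 2-fold required in each line, 385 regions opened in both, 154 closed in both, 382 had DU-145 opening with BT-549 closing, and 16 the reverse. The balance turned with the scaling, as loess offsets left 858 opposite against 1411 same-sign regions, removal of the GC trend 1130 against 1465, and thinning of every library to the lowest total 175 against 286.

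**Figure D1:**
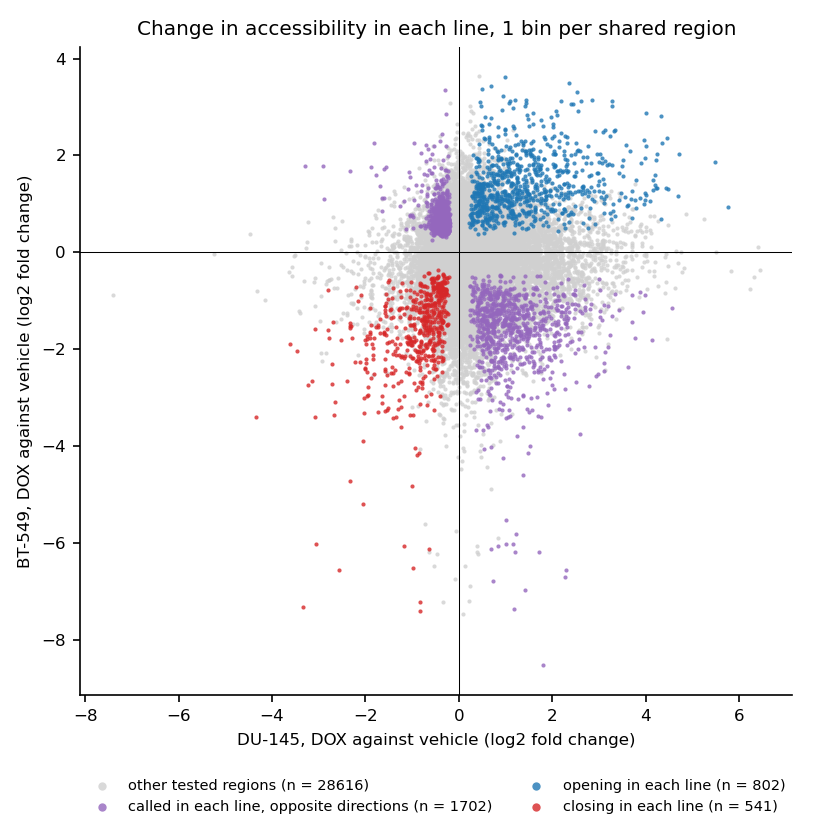
Log2 fold change of accessibility with DOX against vehicle in DU-145 (horizontal) and in BT-549 (vertical), 1 point for each of 31661 regions. The 802 regions opening in each line lie at the upper right, the 541 closing in each line at the lower left, and the 1702 regions called in opposite directions in the other corners.

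In 1326 regions (4.19%) every DOX library lay above every vehicle library of the same line in both lines, and in 1303 (4.12%) every DOX library lay below. Of the 802 regions opening in each line, 727 had this separation, as did 496 of the 541 closing ones. The size of the change differed between the lines (interaction adjusted p under 0.05) at 257 of the 802 opening regions, with the larger change in DU-145 at 131, and at 123 of the 541 closing regions, with the larger change in DU-145 at 8. Because a closing region had to pass within BT-549, where DOX bins held few fragments, the count of 8 depends on that choice.

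The sites described first were chosen among regions that had no overlap between vehicle and DOX in either line and a mean normalized coverage of at least 10 in each line, so the separation of their groups was fixed by the choice. Within these limits, the 12 opening regions with the largest change in their less-changed line had common log2 fold changes from 2.21 to 3.74, and 11 of them lay outside promoters. The first was a site 42224 bp upstream of SYT14, a member of the synaptotagmin family of membrane-trafficking proteins. Its normalized coverage was 3.17, 2.95 and 4.93 in DU-145 vehicle and 37.5, 40.0 and 33.3 in DU-145 DOX, and 5.38, 6.45 and 1.17 in BT-549 vehicle and 20.2, 29.1 and 63.5 in BT-549 DOX. The BT-549 DOX libraries spread more widely than the DU-145 ones. DU-145 had a log2 fold change of 3.29 ± 0.28 (SE, n = 3 against 3) and BT-549 one of 3.12 ± 0.42. The common effect had an adjusted p of 8.32e-08 (edgeR). A site 30794 bp downstream of the nearest start of MYRFL, a relative of the myelin regulatory factor, had 5.65, 5.91 and 4.42 in DU-145 vehicle against 42.5, 34.4 and 41.6 in DU-145 DOX, and 8.66, 5.84 and 12.3 in BT-549 vehicle against 97.0, 64.5 and 72.2 in BT-549 DOX. The DOX level was higher in BT-549 than in DU-145, and the common log2 fold change was 3.0 ± 0.21 (adjusted p = 1.13e-08).

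TRPV1 encodes the heat- and capsaicin-gated cation channel, and an intronic site 16700 bp from its nearest TSS had the largest common change of the 12, 3.74 ± 0.25. Normalized coverage there rose from 1.71, 4.86 and 4.70 to 84.1, 84.2 and 78.0 in DU-145 and from 6.30, 3.68 and 9.57 to 28.6, 58.7 and 50.6 in BT-549. The rise was larger in DU-145 (4.34) than in BT-549 (2.82), with an interaction adjusted p of 0.0238. A site 11891 bp upstream of NID2, a nidogen of the basement membrane, went from 2.53, 8.33 and 9.5 to 73.6, 70.9 and 77.1 in DU-145 and from 7.66, 9.42 and 4.28 to 49.0, 52.6 and 29.3 in BT-549. Its log2 fold change was 3.35 in DU-145 and 2.53 in BT-549.

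ATF7IP2 is a relative of ATF7IP, a partner of the histone methyltransferase SETDB1, and the site 44005 bp upstream of its nearest start held 2 AP-1 matches in the 300 bases around its bin. It had 20.7, 17.8 and 18.8 in DU-145 vehicle and 97.8, 84.7 and 81.3 in DU-145 DOX, and 8.35, 2.80 and 9.51 in BT-549 vehicle and 58.1, 28.9 and 27.7 in BT-549 DOX. The common log2 fold change was 2.24 ± 0.18 (adjusted p = 5.75e-08), and 1 BT-549 DOX library stood above the other 2. ERCC6, the transcription-coupled repair factor CSB, had a site 11112 bp upstream that rose from 2.43, 2.52 and 3.14 to 18.4, 20 and 23.8 in DU-145 and from 6.96, 7.49 and 7.05 to 37.2, 41.9 and 44.3 in BT-549. This site had narrow groups in both lines.

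The remaining opening sites of the 12 were near SLC1A3, a glutamate transporter (2.30), NTSR1, the neurotensin receptor (2.29), NABP1, a single-stranded DNA-binding protein (2.21), GASK1B (2.90), and the pregnancy-specific glycoproteins PSG9 (2.97) and PSG4 (2.44), given as common log2 fold changes. The PSG4 site, 2876 bp upstream, was the promoter among the 12. The PSG family is a cluster of near-identical genes, and the 300 bases around the PSG9 and PSG4 sites recurred at 8 and 9 other places of GRCh38 at 90% identity or more over at least 200 bases, so their coverage is uncertain. Every one of the 12 sites had a called peak in all 6 DOX libraries, and 3 had one in all 6 vehicle libraries. Among all tested regions, 95.7% to 98.2% had a peak in single DU-145 DOX libraries and 58.7% to 65.0% in single BT-549 DOX libraries.

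The 12 closing regions chosen by the same rule had common log2 fold changes from -3.16 to -2.0, and 12 of 12 lay outside promoters. A site 37394 bp upstream of CCR4, the receptor of the chemokines CCL17 and CCL22, had 55.6, 62.1 and 68.9 in DU-145 vehicle and 4.59, 3.03 and 12.3 in DU-145 DOX, and 35.9, 37.7 and 39.6 in BT-549 vehicle and 9.76, 8.47 and 0 in BT-549 DOX. In BT-549, 1 DOX library had no coverage there, and the common log2 fold change was -3.16 ± 0.28 (adjusted p = 1.16e-07). GALNT15 encodes an enzyme that starts mucin-type O-glycosylation, and a site 94930 bp upstream of its nearest start went from 28.7, 30.1 and 21.6 to 2.21, 3.65 and 6.28 in DU-145 and from 33.2, 38.4 and 35.5 to 7.11, 1.65 and 2.03 in BT-549. The common log2 fold change was -2.72 ± 0.27.

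NCOA6 is a coactivator of nuclear receptors, and a site within it 29789 bp from the nearest TSS had 33.8, 39.9 and 38.8 in DU-145 vehicle against 8.74, 8.81 and 5.20 in DU-145 DOX, and 34.7, 47.5 and 35.7 in BT-549 vehicle against 3.49, 1.69 and 0 in BT-549 DOX. A site 20327 bp upstream of EPM2A, the glycogen phosphatase laforin, had the widest difference between the lines. It fell from 12, 19.7 and 22.6 to 5.76, 3.55 and 3.69 in DU-145 and from 156, 144 and 169 to 4.83, 8.92 and 1.5 in BT-549. The log2 fold change was -2.05 in DU-145 and -5.19 in BT-549 (interaction adjusted p = 0.000349), from a vehicle level that was far higher in BT-549.

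KITLG encodes stem cell factor, the ligand of KIT, and an intronic site 26319 bp from its nearest TSS had 35.1, 52.9 and 42.3 in DU-145 vehicle and 9.03, 10.0 and 16.2 in DU-145 DOX, and 52.6, 42.0 and 58.9 in BT-549 vehicle and 4.47, 2.99 and 12.7 in BT-549 DOX. It had a common log2 fold change of -2.0 ± 0.22 (adjusted p = 1.83e-06). LMO7, a LIM-domain protein of adherens junctions, had an intronic site that went from 21.2, 16.4 and 18.3 to 6.37, 4.18 and 3.81 in DU-145 and from 26.9, 31.4 and 30.2 to 2.19, 4.46 and 10.9 in BT-549. The other closing sites of the 12 were near RYK, a WNT co-receptor (-2.15), INKA2 (-2.23), SRP9 of the signal recognition particle (-2.18), RAB3D of secretory granules (-2.08), the scavenger receptor SCARA5 (-2.01) and the RNA methyltransferase TARBP1 (-2.21), given as common log2 fold changes. All 12 had a called peak in the 6 vehicle libraries and none had one in all 6 DOX libraries. Among all tested regions, 87.8% to 99.7% had a peak in single vehicle libraries and only 58.7% to 65.0% in single BT-549 DOX libraries. The peaks come from the same reads by which the sites were chosen.

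**Figure D2:**
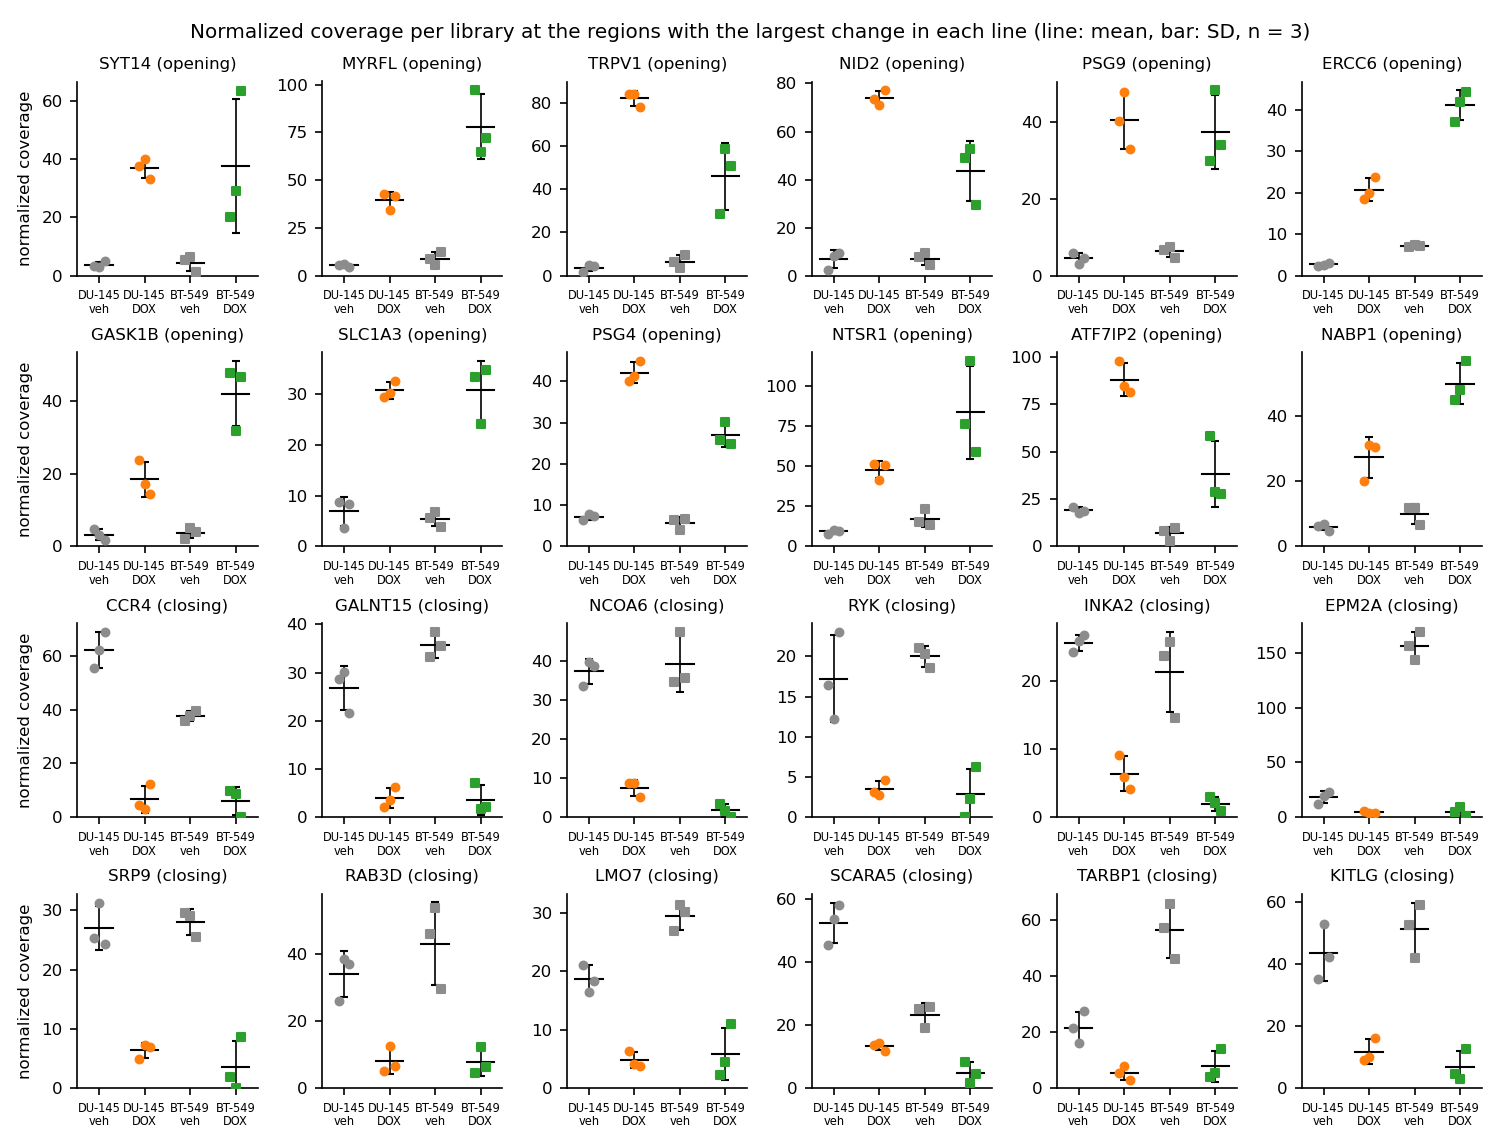
Normalized coverage (vertical, linear from 0) of the 24 sites named above in each of the 12 libraries, with the mean as a horizontal line and the SD as a bar (n = 3). The sites were chosen for no overlap between the groups of a line, and the panels show their levels and spread, such as the far higher vehicle level of EPM2A in BT-549.

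Regions that opened in both lines were mostly distal. Of the 802, 96 (12%) were in promoters, within 3000 bp of a TSS, against 44.6% of all tested regions and 22.2% of the 541 that closed in both. Introns held 44.3% of the opening regions and intergenic DNA 38.5%, and 50.7% lay more than 50 kb from the nearest protein-coding TSS against 19.5% of all tested regions and 27.4% of the closing ones. The median GC content of the representative bin was 48% in opening, 50% in closing and 58% in all tested regions. Under the main scaling the opposite regions divided sharply. Promoters made up 7.12% of those where DU-145 opened and BT-549 closed but 85.0% of those where DU-145 closed and BT-549 opened. The latter had a median GC content of 66%, and their number depended on the scaling. The 845 regions became 155 with loess offsets, 472 with library totals, 780 without the GC trend, 972 with RLE factors and 62 after thinning. Their promoter share was not examined under these settings.

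Short sequence motifs were searched on both strands in the 300 bases around each representative bin, as exact letters. The letters were TGACTCA for AP-1, GGAATG for TEAD, CCGGAAGT for ETS, TGTGGTTT for RUNX, TGTTTAC for FOX and CCACNAGNG for CTCF. The rest were GGGANTTTC for NF-kB, GAAANNGAA for IRF, GGGCGGGG for SP/KLF, TGACGTCA for CREB, CACGTG for the E-box and AGATAAG for the zinc-finger factors of the GATA family, and none contains another. AP-1 letters occurred in 45.6% of the regions opening in each line, 28.8% of those closing in each line and 19.6% of all tested regions. Outside promoters the shares were 49.0% of 706 opening, 33.5% of 421 closing and 30.8% of 17544 tested regions. TEAD letters followed the same order, with 35.1%, 24.5% and 23.0% outside promoters. Where the lines diverged, AP-1 letters were in 51.1% of the 796 regions outside promoters where DU-145 opened and BT-549 closed, and in 40.9% of the 127 where DU-145 closed and BT-549 opened. With promoters included the shares of these opposite sets were 50.8% and 8.05%. RUNX letters were in 8.07% of opening and 7.6% of closing regions outside promoters against 4.41% of all, GATA letters in 4.96%, 1.66% and 3.07%, and FOX letters in 3.26%, 6.41% and 4.37%. Letters of CTCF, the insulator protein, were in 2.97% of opening and 3.80% of closing regions against 9.25% of all, and those of SP/KLF in 1.13%, 3.09% and 5.38%. IRF letters were in 12%, 12.8% and 10.4%, and NF-kB letters in 0.992%, 2.38% and 1.64%. The ETS, CREB and E-box letters occurred in 0.567%, 0.283% and 2.12% of opening, in 0%, 1.19% and 3.09% of closing and in 0.627%, 0.536% and 4.59% of all tested regions outside promoters. These shares are descriptions without a test, and the AP-1 shares of opening and closing regions outside promoters came closer after removal of the GC trend, at 44.2% and 38.9%, and were 51.6% and 32.3% after thinning.

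**Figure D3:**
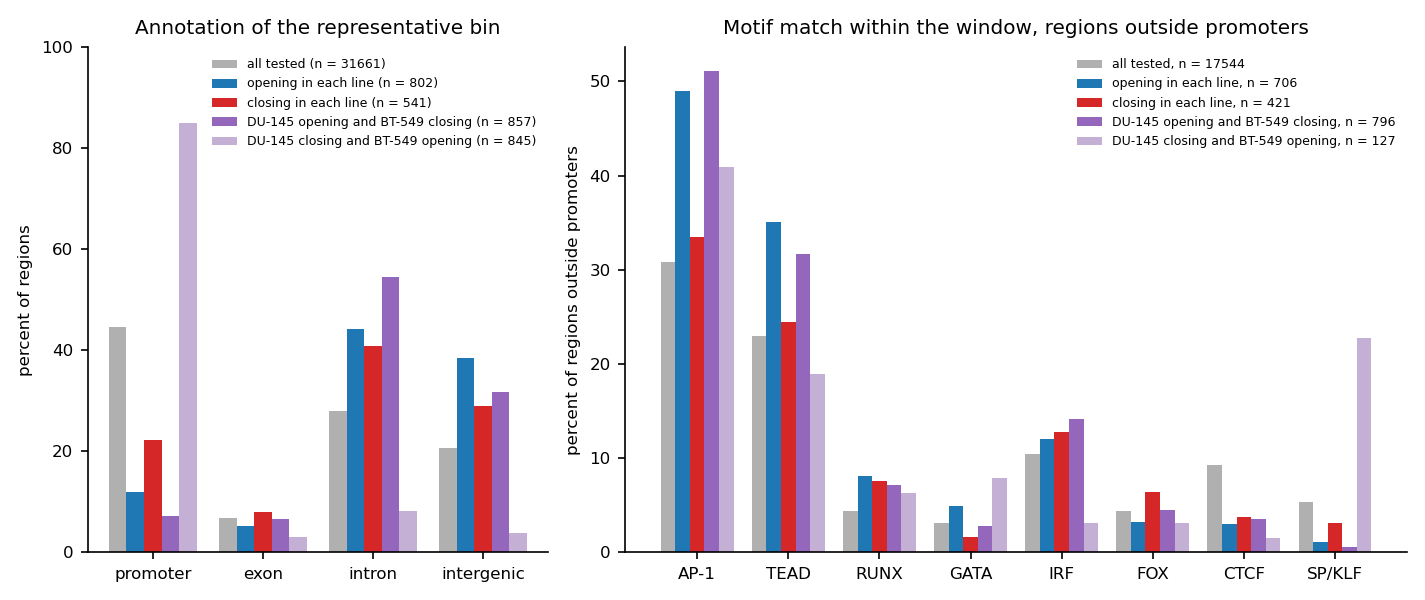
Left, percent of regions (vertical) whose representative bin is in a promoter, exon, intron or intergenic DNA, for all tested regions, both sets that changed alike in the lines and both sets that changed in opposite directions. Right, percent of the regions outside promoters with a match to each motif, where AP-1 reaches 49.0% in regions opening in each line against 30.8% of all tested.

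Within 100 kb of a protein-coding TSS lay 504 of the 802 opening and 456 of the 541 closing regions, which named 441 and 426 genes. Among them, 56 genes had at least 2 opening regions and 26 had at least 2 closing regions. MACF1, a spectraplakin that links actin and microtubules, had 4 opening regions, all intronic, with common log2 fold changes of 1.59, 1.43, 1.01 and 0.62. At the first of them, normalized coverage was 18.4, 23.1 and 20.4 in DU-145 vehicle and 66.1, 71.0 and 61.8 in DU-145 DOX, and 15.8, 16.9 and 16.7 in BT-549 vehicle and 40.2, 63.5 and 31.6 in BT-549 DOX. RGS4, which switches off G-protein signaling, had 3 opening regions (1.32, 1.43 and 1.61), among them its promoter 6 bp from the TSS. That promoter went from 6.16, 9.91 and 11.1 to 33.9, 32.0 and 34.7 in DU-145 and from 30.6, 27.6 and 29.4 to 53.1, 85.7 and 42.2 in BT-549. Vehicle coverage at this promoter was higher in BT-549, and the groups did not overlap in either line.

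ANPEP, the cell-surface aminopeptidase CD13, had 3 opening regions (1.78, 1.51 and 1.99), and those 8149 and 5949 bp upstream rose more in DU-145 than in BT-549 (interaction adjusted p = 0.00222 and 0.000201). HAS3, a hyaluronan synthase, had 3 opening regions 32103 to 42803 bp upstream (0.91, 1.75 and 1.33), and PSD3, an exchange factor for the small GTPase ARF6, had 3 (1.98, 1.61 and 0.91). The PSD3 region at 0.91 lost its call with loess offsets (adjusted p = 0.0857), in thinned libraries (0.0879), and without DU-145 vehicle replicate 2 (0.118), DOX replicate 1 (0.0502) or DOX replicate 3 (0.051). Among closing genes, TKT, the transketolase of the pentose phosphate pathway, had 3 regions (-1.07, -0.72 and -0.74). Its upstream site 14228 bp from the TSS fell from 265, 245 and 267 to 132, 127 and 121 in DU-145 and from 220, 202 and 207 to 83.6, 95.1 and 98.5 in BT-549, the highest coverage of any region named here that closed in both lines. NCOA7 had 3 closing regions, among them its promoter 74 bp from a TSS, which fell by a common log2 fold change of -1.40 ± 0.13, from 57.4, 65.5 and 75.4 to 27.4, 25.6 and 24.9 in DU-145 and from 108, 107 and 122 to 46.4, 37.2 and 34.7 in BT-549. NAV1, a microtubule-binding neuron navigator, had 3 closing regions (-1.53, -1.65 and -0.50), SRP9 had 3 (-2.18, -2.66 and -0.68), and COL1A1 of type I collagen had 2 (-2.07 and -0.78), the latter without a call when DU-145 vehicle replicate 2 was left out (adjusted p = 0.0602). The NAV1 region at -0.50 has an adjusted p of 0.0494 and lost its call when any of 10 single libraries was left out.

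Genes were then grouped by function, in 15 lists, with each region given to its nearest TSS within 100 kb. Of the 28241 regions that could be so assigned, 13.5% were common calls and 3.40% were called in each line, and the lists are read beside these shares without a test. In the AP-1 family list, 42 regions of 18 genes held 5 common opening and 4 common closing regions. The 2 called in each line were both opening and both nearest to JUN. The one printed above, 65003 bp upstream of the TSS, went from 72.6, 61.3 and 60.9 to 197, 146 and 161 in DU-145 and from 129, 124 and 146 to 319, 276 and 325 in BT-549, a common log2 fold change of 1.29 ± 0.11 (adjusted p = 7.53e-08) with 1.35 in DU-145 and 1.22 in BT-549. The JUN promoter itself, 103 bp from the TSS, had no common call (0.15 ± 0.14, adjusted p = 0.521), and its log2 fold change was -0.22 in DU-145 and 0.64 in BT-549 (interaction adjusted p = 4.44e-06).

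Type I interferon genes leaned to closing. Of 97 regions near 39 genes, 6 were common opening and 16 common closing, with a median log2 fold change of -0.22 against -0.01 over all assigned regions, and 2 opened and 6 closed in each line. The closing ones were nearest to IFI6, EIF2AK2 (the double-stranded RNA-activated kinase PKR), DTX3L, IFIH1 (the RNA sensor MDA5), ISG20 and HERC5, and the opening ones to IFI44 and JAK1. The IFI6 promoter went from 99.4, 89.4 and 79.1 to 51.4, 63.6 and 58.8 in DU-145 and from 127, 136 and 125 to 61.1, 103 and 49.7 in BT-549 (common log2 fold change -0.70 ± 0.12, adjusted p = 0.000418). The EIF2AK2 and DTX3L promoters fell by a common log2 fold change of -0.67 and -0.56. These changes are smaller than those at the distal sites above, and those at EIF2AK2 and DTX3L lost the call in thinned libraries (adjusted p = 0.11 and 0.562).

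Hippo pathway genes moved both ways, with 12 common opening and 13 common closing among 123 regions, and 3 opening and 5 closing in each line. CCN1, a YAP target encoding a matricellular protein, had a region 26589 bp from its TSS that rose from 70.7, 60.8 and 68.7 to 171, 140 and 178 in DU-145 and from 189, 178 and 163 to 284, 313 and 315 in BT-549 (1.04 ± 0.12). A region upstream of FRMD6 opened by 2.22 in DU-145 and 0.81 in BT-549, and WWTR1, which encodes TAZ, also had an opening region. ANKRD1, another YAP target, had a closing region (-0.95 ± 0.18), as did AMOTL2, FAT1 and, with 2 regions, WWC1. TGF-beta and BMP genes had 16 common opening and 6 common closing among 115 regions, 19.1% in all. In each line 3.48% were called, near the 3.40% of all assigned regions. In each line, LTBP3, which binds latent TGF-beta (1.24, but 0.43 with 1 bin per BT-549 region), and BMP6 (2 regions, 0.91 at the one with the smaller p) had opening regions, and LTBP1 had a closing one (-1.11).

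Epithelial and mesenchymal genes had the highest shares of calls among the 15 lists, 26.1% and 30.3% for common calls and 10.9% and 13.6% in each line. Among the 66 regions of EMT and mesenchymal genes, 14 were common opening and 6 common closing, and 5 opened and 4 closed in each line. PRRX1, a mesenchymal homeobox factor, had a site 39784 bp upstream with 2 AP-1 matches that went from 13.4, 6.92 and 8.40 to 68.0, 60.3 and 58.1 in DU-145 and from 9.33, 13.0 and 9.19 to 48.5, 33.3 and 32.0 in BT-549 (2.43 ± 0.21, adjusted p = 8.32e-08). A site 12691 bp upstream of VIM, the mesenchymal intermediate filament vimentin, rose from 1.84, 2.55 and 1.07 to 8.59, 12.1 and 14.6 in DU-145 and from 6.94, 2.68 and 4.01 to 63.7, 37.3 and 28.7 in BT-549. Opening regions were also nearest to ZEB1 and LOXL2, and closing ones to COL1A1, S100A4 and LOXL2. COL1A1 coverage at its site 20619 bp upstream was 78.1, 80.0 and 90.8 in DU-145 vehicle and 19.1, 20.2 and 21.1 in DU-145 DOX, while in BT-549 it was 13.5, 8.46 and 14.7 in vehicle and 0, 0 and 3.56 in DOX.

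Epithelial genes had 7 common opening and 5 common closing among 46 regions. In each line, regions near CLDN4, ESRP1 and TP63 opened and regions near OCLN and ELF3 closed. The OCLN site, in an intron of the tight junction protein occludin, went from 112, 104 and 111 to 47.4, 59.4 and 45.4 in DU-145 and from 16.3, 16.5 and 15.9 to 8.73, 1.38 and 1.28 in BT-549. The ELF3 site fell more in BT-549 (-2.13) than in DU-145 (-0.58), and the TP63 site rose more in DU-145 (1.35) than in BT-549 (0.51), each past the interaction threshold. Both the epithelial and the mesenchymal list therefore held regions of each direction.

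Cell polarity genes had 10 common opening and 9 common closing among 126 regions, with 3 and 3 in each line. FRMD4A, a scaffold of the PAR polarity complex, had 2 of those opening regions and a closing one at which coverage went from 33.2, 22.9 and 29.5 to 11.8, 10.5 and 6.81 in DU-145 and from 164, 155 and 151 to 60.2, 40.7 and 58.6 in BT-549 (-1.57 ± 0.16). CELSR1, a planar polarity cadherin, had a closing region (-1.06), and DLG5 an opening one (0.88) at which 1 BT-549 DOX library, at 6.15, fell within the vehicle range of 1.90 to 6.44. The DLG5 call was lost with loess offsets (adjusted p = 0.053). Axon guidance genes had 9 common opening and 10 common closing among 84 regions. EPHA2, an ephrin receptor, opened from 68.1, 73.2 and 56.5 to 124, 125 and 112 in DU-145 and from 69.3, 66.3 and 83.0 to 153, 147 and 154 in BT-549 (0.92 ± 0.10). SEMA3C had an opening and SEMA6A 2 closing regions. Actin and adhesion genes had 15 and 15 among 141 regions, with the ITGB5 promoter (1.08) and a region near ITGA3 (0.56), both integrin genes, among those opening in each line. Removing the GC trend lowered the ITGA3 value to 0.37 and ended its call (adjusted p = 0.0556).

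Genes of the integrated stress response had 3 common opening and 10 common closing among 80 regions, and 2 and 4 in each line. The promoter of PPP1R15A (GADD34), which dephosphorylates eIF2 alpha, opened by 1.23 ± 0.15, as did a region near the amino acid transporter SLC7A5, and regions near SLC3A2 (-1.0), TRIB3 (-1.49), NUPR1 and PSPH closed. NF-kB and inflammatory genes had 5 and 8 among 83 regions and only closing ones in each line, at NFKBIZ and CXCL2. The shares of this list were 15.7% common and 2.41% in each line, the latter below the 3.40% of all assigned regions. Its direction in each line rests on 2 regions. The NFKBIZ site fell from 113, 104 and 100 to 49.8, 47.7 and 43.1 in DU-145, and in BT-549 its coverage was 8.17, 8.31 and 7.69 in vehicle and 0, 0.802 and 0 in DOX. NOTCH genes had 6 and 2 among 67 regions, with closing regions near HES1 (-0.86) and ADAM17 (-0.97) in each line. At 11.9% common and 2.99% in each line, the NOTCH list was below the 13.5% and 3.40% of all assigned regions. BAF complex genes had 4 and 4 among 71 regions, with opening ones near ARID1B (1.57) and BRD7 (0.48). These shares, 11.3% common and 2.82% in each line, were below the 13.5% and 3.40% of all assigned regions. Both calls were lost in thinned libraries (adjusted p = 0.0533 and 0.157). The BRD7 call was also lost with a replicate block (adjusted p = 0.0606). At the ARID1B site 1 BT-549 DOX library, at 5.17, was below the vehicle range of 8.03 to 10.1.

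Of 66 regions near stemness factors, 5 were common opening and 8 common closing, and the 3 called in each line closed. They were the LGR4 promoter (-0.74 ± 0.11), which went from 110, 123 and 107 to 63.6, 70.3 and 78.4 in DU-145 and from 86.9, 98.0 and 86.2 to 43.3, 50 and 50.6 in BT-549, a site 7793 bp from LY6E (-2.25 ± 0.26), and a site near MYC (-1.59 ± 0.33). LGR4 is the receptor of R-spondins in WNT signaling. Cell cycle genes had the lowest share of calls, with 3 common opening and 1 common closing among 72 regions, 5.56%, and 0 in each line by the same test, where 3.40% of all assigned regions were called.

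**Figure D4:**
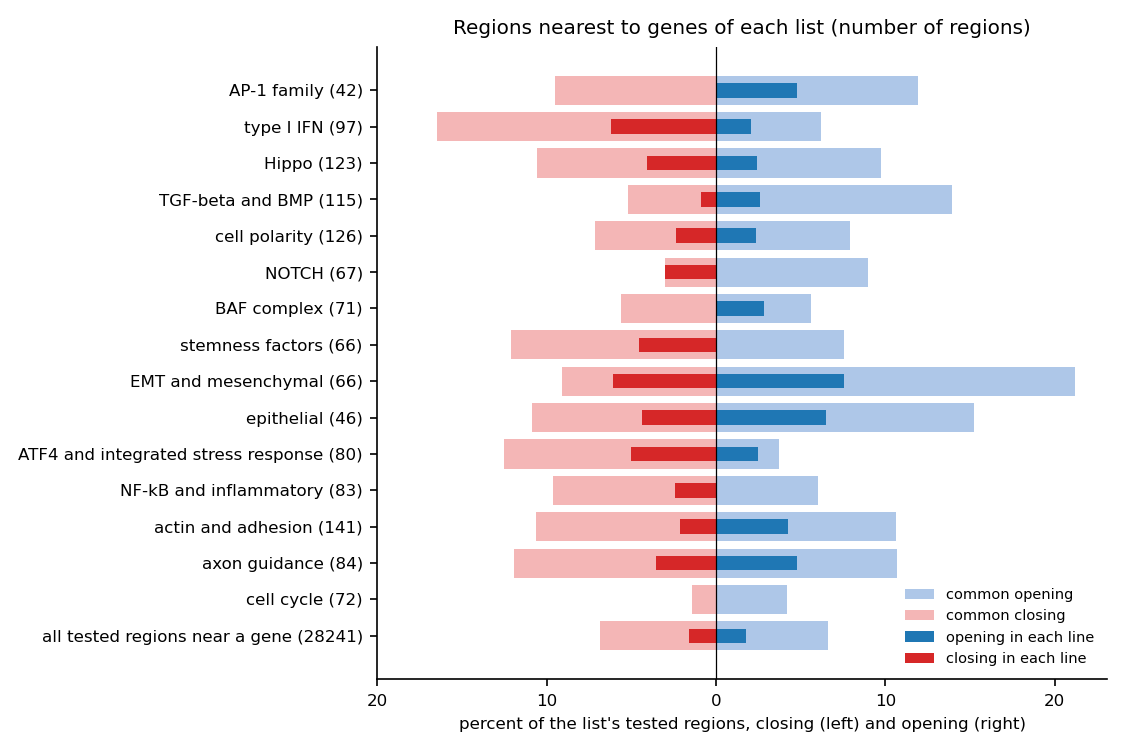
Percent of each list's tested regions (horizontal, closing to the left and opening to the right) that were common calls (pale) and that were called in each line (dark), with the number of regions in parentheses. EMT and mesenchymal genes reach 30.3% common calls in all and cell cycle genes 5.56%, against 13.5% of all assigned regions.

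At the genes the study examined most closely, the promoter regions nearest the start mostly had no common call, while other regions of some genes did. The enhancer-like elements that the paper studied at NOTCH1, EGR1 and LY6E lie farther from the start than the promoter bins tested here. Those bins were 202, 429 and 193 bp from a TSS and do not stand for the paper's elements. The EGR1 region as a whole, 138463201 to 138472000 on chromosome 5, is wide enough to include both elements the paper studied there. The LY6E site at 7793 bp, which closed in each line, lies near the paper's distal element at this gene. Of the regions assigned to each gene, common calls were made in 2 of 7 at LY6E and 1 of 3 at EGR1, all closing, in 4 of 9 at JUN, 3 of them opening, and in 0 of 2 at NOTCH1 and 0 of 4 at ARID1A, where 13.5% of all assigned regions were called. The MUC1 region upstream of the gene start, 635 bp away, went from 122, 126 and 116 to 78.7, 89.8 and 78.3 in DU-145 and from 170, 227 and 175 to 123, 163 and 155 in BT-549. It was a common closing region (-0.49 ± 0.11, adjusted p = 0.00357), past the threshold in DU-145 and not in BT-549 (adjusted p = 0.0714). With all shared bins of the region summed its log2 fold change was -0.05, and thinning left -0.48 (adjusted p = 0.0854). It was looked at after its values were seen, because the tested region nearest to an annotated MUC1 start lies at an internal one with coverage of 2.01 to 18.7 in the 12 libraries. That internal region had a log2 fold change of 0.14 ± 0.38. The promoter regions of NOTCH1 (-0.05 ± 0.12), EGR1 (-0.14 ± 0.11), LY6E (-0.34 ± 0.12) and ARID1A (-0.18 ± 0.12) had no common call, with adjusted p of 0.806, 0.437, 0.0593 and 0.362. The region LY6E 193 bp, at its promoter, passed with RLE factors (-0.37, adjusted p = 0.0422) and under 5 other alternatives, and EGR1 with summed bins (-0.59, adjusted p = 0.00135). The summed EGR1 value takes in the shared bins of that whole wide region, and the paper's elements were not tested apart. EGR1 coverage went from 297, 304 and 345 to 250, 242 and 226 in DU-145 and from 258, 246 and 264 to 313, 299 and 287 in BT-549, opposite directions with an interaction adjusted p of 0.000356. By edgeR the fall passed within DU-145 (-0.39, adjusted p = 1.04e-05), but the rise within BT-549 did not (0.23, adjusted p = 0.191). A value that misses the threshold does not show that these promoters stayed the same.

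Peaks had also been called in each library, from the same reads as the bin values. Of the 802 regions opening in each line, 74.6% to 81.8% overlapped a called peak with DU-145 under vehicle and 99.9% in each DU-145 DOX library. In BT-549, 88.9% to 96.6% did in vehicle and 92.5% to 95.6% in DOX, where only 58.7% to 65.0% of all tested regions had a peak. Of the 541 regions closing in each line, 99.6% to 100% had a peak with DU-145 under vehicle and 86.3% to 90% in DOX. In BT-549, 100% of the 541 had one in vehicle and 45.1% to 51.0% in DOX. Single vehicle libraries of DU-145 had peaks at 87.8% to 94.9% of all tested regions. After DOX, that background in DU-145 was 95.7% to 98.2%. BT-549 vehicle libraries had peaks at 98.1% to 99.7% of all tested regions, so the 100% there lies close to background. Peak calls follow depth, and the BT-549 DOX libraries had 30450 to 39837 peaks against 65204 to 93929 in BT-549 vehicle. The part of depth in the BT-549 changes was not tested beyond thinning.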

How the data were processed

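ATAC-seq bin tables of 12 libraries were used. Per the labels and methods, the authors aligned reads to GRCh38 with BWA, removed duplicates with Picard, called peaks in each library with MACS2 2.2.7.1, merged them over a line's libraries, kept regions found in at least 3 and split these into 100-bp bins. The deposited bin values, used here as estimated counts, were made by the authors as the mean fragment coverage over each bin, without scaling for depth. They are not whole and were rounded before testing, and neighbouring bins can share fragments. The peak lists deposited by the authors, 1 per library and not pooled, carry −log10 q values, which set no threshold here. The methods call the replicates biologically independent.

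Of 709366 DU-145 and 472994 BT-549 bins, 321392 were shared. The shared bin with the highest mean scaled value represented each DU-145 region. edgeR 4.0.16 (R 4.3.3; TMM, robust quasi-likelihood, Benjamini-Hochberg adjustment over 31661 regions) was fitted with line and DOX as additive terms, and a 4-group fit gave each line's effect and the interaction. Regions needed a rounded total of 10 in each line, which removed 0. SE is the log2 fold change divided by the square root of F. The alternatives were other tests (DESeq2 1.42.0, limma 3.58.1 with a pseudocount of 1), scalings, filters, bins, thresholds, a replicate block and leaving out each library. Thinning to the lowest total was added after the data were seen. On simulated data, common changes of log2 1 and -1 were called in 76% and 58% of 50 regions each, and in each line in 8% and 2%. At log2 2 and -2 the shares were 100% and 98%, and 96% and 42%. Changes were placed only in regions above a minimum mean coverage, with the same dispersion everywhere. These shares therefore may not hold for regions with fewer fragments. They may also be too low for the data, since 31457 simulated regions had no change and the adjustment was harsher than with many changed regions.

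Regions were named by the nearest protein-coding TSS (GENCODE annotation) within 100 kb. Named were the 12 opening and 12 closing regions with the largest change in the less-changed line (no overlap, mean coverage of at least 10 in each line, 1 per gene), the regions nearest 6 genes of the study, up to 3 genes per list by smallest adjusted p, and up to 5 genes per direction with the most regions. Some further list members are named without values. The members, rules and lists, the latter from general knowledge, were chosen with earlier results of these data known. Depth limits BT-549 DOX values to a few fragments per bin. Some items are not reported here.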

Additional observations from a re-analysis of the deposited data

Results flagged for a closer look

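Of 96 named regions, 20 changed by a different amount in the lines (edgeR interaction, adjusted p under 0.05); differences are log2, BT-549 minus DU-145. Among opening regions the rise was larger in DU-145 at TRPV1 (-1.52), FRMD6 (-1.42), CCN1 (-0.53), TP63 (-0.83) and ANPEP (-1.33 at 8149 bp and -1.74 at 5949 bp upstream). It was larger in BT-549 at DLG5 (2.09), ITGA3 (0.96), RGS4 80725 bp upstream (1.39), HAS3 32103 bp upstream (0.68) and PSD3 at 16980 bp (1.41). Among closing regions the fall was larger in BT-549 at EPM2A (-3.14), CELSR1 (-1.32), LY6E at 7793 bp (-1.7), ELF3 (-1.56), CXCL2 (-2.36) and NCOA7 5174 bp upstream (-1.11), and larger in DU-145 at NAV1 29377 bp upstream (1.21). At 2 promoters without a common call the lines differed, EGR1 (0.62), where the rise within BT-549 did not pass, and JUN (0.86). Groups of 3 libraries were not tested for outlying samples.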

How the results depend on the processing

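An adjusted p under 0.01 left 1054 common closing regions and, in each line, 485 opening and 276 closing ones. Requiring a 2-fold change left 1304 and 488 common and 385 and 154 in each line, opening first. DESeq2 gave 315 regions closing in each line, limma 1709 common opening, removal of the GC trend 3841 common closing, and summed bins 1385 opening and 926 closing in each line. Thinning, chosen after the data were seen, left 836 and 534 common and 204 and 82 in each line, of which 196 and 74 were among the main calls. Leaving out 1 library gave 2070 to 2586 common opening, 1487 to 2276 common closing, 590 to 772 opening in each line and 376 to 545 closing in each line. Filtering by no minimum removed nothing.

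Replicate numbers did not pair the libraries, as deviations of same-numbered libraries correlated by at most 0.0597. With the numbers as a replicate block, 1430 common opening and 821 common closing regions were called, and 711 and 391 in each line.

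The 90 called named regions kept their direction in 2331 comparisons and lost the call in 47 (22 regions), 28 of them without thinning. Thinning ended the call at 19 named regions, among them ANKRD1 (adjusted p = 0.15), BMP6 (0.206), TP63 (0.242) and CXCL2 (0.219). Among uncalled regions, MUC1 at 117 bp (main 0.14) had -0.17 with loess offsets and ranged from -0.06 to 0.35 without single libraries, NOTCH1 had 0.29 with summed bins and 0.24 thinned, and JUN -103 bp had -0.02 with summed bins. Calls were gained in 9 comparisons of 3 regions, 6 at LY6E 193 bp (adjusted p 0.00193 to 0.0422), 2 at JUN -103 bp (0.23 with loess offsets, adjusted p = 0.0356, and 0.21 as the average of the lines' effects, adjusted p = 0.0401) and 1 at EGR1 (-0.59 with summed bins). The cause was not tested. BT-549 DOX depth limits small closing changes.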

Other observations

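At 25 genes, a region that opened in both lines and a region that closed in both lines had the same nearest gene, so the gene as a unit had no single direction. ADAM19, a membrane-anchored metalloprotease, had a region at -31775 bp from its start that rose by a log2 fold change of 2.74 and an intronic one at -0.81. FOXP1, a forkhead transcription factor, had an opening region at -2680 bp from a start (1.32) and an intronic closing one (-1.41). EGFR, the epidermal growth factor receptor, had an intronic opening region (0.92) and a closing one (-0.46). PTPN1, a tyrosine phosphatase, had 2 opening regions (1.44 and 1.07) and a closing one (-2.23). NAV1 had a promoter that opened (1.04) besides its 3 closing regions, 2 of which are also promoters of annotated starts. These genes were chosen after their values were seen.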
